A study of Mus musculus with 7 samples.

Results

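Dlk1, Meg3, H19, Igf2, Mest, Peg3, Ndn, Grb10 and Plagl1 are imprinted genes that act on growth. They were followed by symbol in a single-cell expression data set of the embryonic mouse dorsal forebrain, and all 9 symbols were found among its 21862 genes. The tissue came from CD-1 mice, an outbred stock, with no other genotype and no treatment named. Cells were profiled by Drop-seq, which captures single cells with barcoded beads in droplets and counts transcripts near their 3′ ends as unique molecular identifiers (UMIs). The samples were E10.5, E12.5, E15.5, E16.5 and E18.5 with 1 sample each, and E14.5 with 2, where E is the embryonic day. No litter, number of embryos or sex is given for a sample, so the p-values below cover no more than the variation among these 7 samples, part of which may be technical.

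An imprinted gene is transcribed mainly from the copy inherited from the mother or mainly from the copy inherited from the father. In the mouse embryo, Igf2, Dlk1, Mest, Peg3, Ndn and Plagl1 are known as paternally expressed genes, and H19 and Meg3 as maternally expressed ones. Grb10 is maternally expressed in most tissues and paternally expressed in neurons. Many of these genes are active in embryonic mesoderm and decline after birth, and Igf2 in the brain is best known from the choroid plexus, the meninges and the vessels. The counts used here do not tell the parental copies apart.

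Igf2 and H19 are neighbours on chromosome 7, at chr7:142650766-142666816 and chr7:142575529-142578143 on the minus strand (GRCm38), with 72622 bases between them. Igf2 encodes insulin-like growth factor II, a secreted ligand, and H19 is a long noncoding RNA. Dlk1, at chr12:109452823-109463336, and Meg3, at chr12:109541001-109571726, lie on the plus strand with 77664 bases between them. Dlk1 encodes a membrane protein related to the Notch ligands, and Meg3 is a long noncoding RNA. Mest lies at chr6:30723547-30748465 and encodes a protein of the alpha/beta hydrolase fold. Peg3, a zinc finger protein, lies at chr7:6703892-6730431 on the minus strand. Ndn, the MAGE family protein necdin, lies at chr7:62346569-62350262. Grb10, an adaptor that binds and inhibits the insulin and insulin-like growth factor receptors, lies at chr11:11930508-12038683 on the minus strand. Plagl1, a zinc finger transcription factor also called Zac1, lies at chr10:13060504-13131694.

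Mest, H19 and Igf2 contain microRNAs, shown here from RefSeq (GRCm38.p6) because these 3 host genes were higher in vascular than in neural cells. Capitals mark the seed, bases 2 to 8 from the 5′ end. No seed occurs more than once among the 6. Mature microRNAs were not counted in these libraries, so the values below are those of the host transcripts.
mmu-miR-335-5p (intron of Mest): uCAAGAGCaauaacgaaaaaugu
mmu-miR-335-3p (intron of Mest): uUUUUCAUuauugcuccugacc
mmu-miR-675-5p (exon of H19): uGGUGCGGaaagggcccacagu
mmu-miR-675-3p (exon of H19): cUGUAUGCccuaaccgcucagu
mmu-miR-483-5p (intron of Igf2): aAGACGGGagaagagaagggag
mmu-miR-483-3p (intron of Igf2): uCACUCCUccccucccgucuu

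Promoters are shown for a gene pair that was higher in neurons than in progenitors, Meg3 and Ndn, and for a pair that was lower, Grb10 and Plagl1. Each is the 250 bases before a RefSeq transcript start (GRCm38.p6), written 5′ to 3′ on the gene's strand, and capitals mark CG dinucleotides, the sites of the DNA methylation that carries imprints.
Meg3, chr12:109540746-109540995, plus strand: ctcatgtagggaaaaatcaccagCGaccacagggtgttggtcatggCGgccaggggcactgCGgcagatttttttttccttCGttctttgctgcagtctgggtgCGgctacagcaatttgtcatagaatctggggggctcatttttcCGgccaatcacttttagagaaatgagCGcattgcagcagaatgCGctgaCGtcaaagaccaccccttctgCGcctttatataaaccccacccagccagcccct
Ndn, chr7:62348027-62348276, plus strand: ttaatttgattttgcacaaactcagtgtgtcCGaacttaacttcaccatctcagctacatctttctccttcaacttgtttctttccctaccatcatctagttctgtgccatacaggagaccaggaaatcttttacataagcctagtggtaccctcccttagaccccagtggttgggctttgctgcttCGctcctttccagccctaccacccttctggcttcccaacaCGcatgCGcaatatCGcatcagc
Grb10, chr11:12037421-12037670, minus strand: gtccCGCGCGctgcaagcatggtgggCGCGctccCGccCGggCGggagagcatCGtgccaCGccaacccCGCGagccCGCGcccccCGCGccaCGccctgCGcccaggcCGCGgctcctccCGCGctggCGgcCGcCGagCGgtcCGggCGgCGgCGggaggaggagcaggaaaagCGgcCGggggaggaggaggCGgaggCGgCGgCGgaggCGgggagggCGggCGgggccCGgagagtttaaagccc
Plagl1, chr10:13090582-13090831, plus strand: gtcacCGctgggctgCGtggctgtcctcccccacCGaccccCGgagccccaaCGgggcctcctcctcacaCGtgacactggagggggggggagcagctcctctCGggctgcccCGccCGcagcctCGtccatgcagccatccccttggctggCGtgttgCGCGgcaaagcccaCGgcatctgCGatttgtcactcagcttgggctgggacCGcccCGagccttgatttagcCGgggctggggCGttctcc

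The Grb10 stretch holds 40 CG dinucleotides, more than 98.7% of 32851 promoters of the same length, and the Plagl1 stretch holds 19, more than 80.3%. Meg3 has 10 and Ndn 5, against a median of 6 over all promoters (quartiles 2 and 16). The motif TATAAA, searched on both strands, occurs 2 times in the Meg3 stretch and in none of the other 3. It occurs in 12.4% of all promoters. The 2 Meg3 matches lie on opposite strands and overlap, so they form a single site. RefSeq gives a second start for 2 of these genes: the 250 bases before it hold 8 CG dinucleotides for Grb10 (more than 57.0% of promoters) and 0 for Meg3, with no TATAAA in either. The gene positions given above come from GENCODE and the transcript starts from RefSeq. By those positions the Ndn, Grb10 and Plagl1 stretches lie inside the gene, and only the Meg3 stretch lies before it. The CG and motif counts are descriptions of the reference sequence, and no methylation was measured.

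The data hold 10261 cells and 27776936 UMIs. Samples range from 387 to 3235 cells, from 1519473 to 6638760 UMIs in total and from 1645 to 3352 UMIs in the median cell, and the median mitochondrial share ranges from 2.25% to 7.53%. The deposited cells carry 19 numbered cluster labels without names. Marker lists that hold none of the 9 genes gave 18 of them a name: apical progenitors (labels 1, 3, 6, 10 and 12), intermediate progenitors (4 and 7), projection neurons (2, 5, 9 and 11), interneurons (8), Cajal-Retzius cells (13), cortical hem (14), mesenchymal (15), endothelial (16), microglia and macrophages (17) and mural cells (18). Label 0, led by genes of newborn neurons, stayed unnamed, and label 12 is led by Olig1, Olig2, Tnc and Egfr, which also mark glial precursors. All 142 cells of label 15 come from E10.5, so that class and that sample cannot be told apart. A doublet caller marked 95 cells (0.926%), which were kept, and 13 cells rich in globin RNA were set aside. Only 4 cell barcodes occur in more than 1 library. The sample of 1 E14.5 library was inferred, as described under processing.

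The clusters were drawn from all genes, these 9 included, so levels by label are a description. Values are CPM: UMIs of the gene per 1000000 UMIs of all genes in the summed cells. A level is compared between cells for the same gene only, since counts near the 3′ end are not comparable between genes. Igf2 and H19 were concentrated in mesenchymal and vascular labels, and summed over samples Mest was highest in endothelial cells and Meg3 in interneurons and Cajal-Retzius cells. Grb10 and Plagl1 were high in progenitors, and Peg3 and Ndn were spread over nearly all neural labels.

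**Figure D1:**
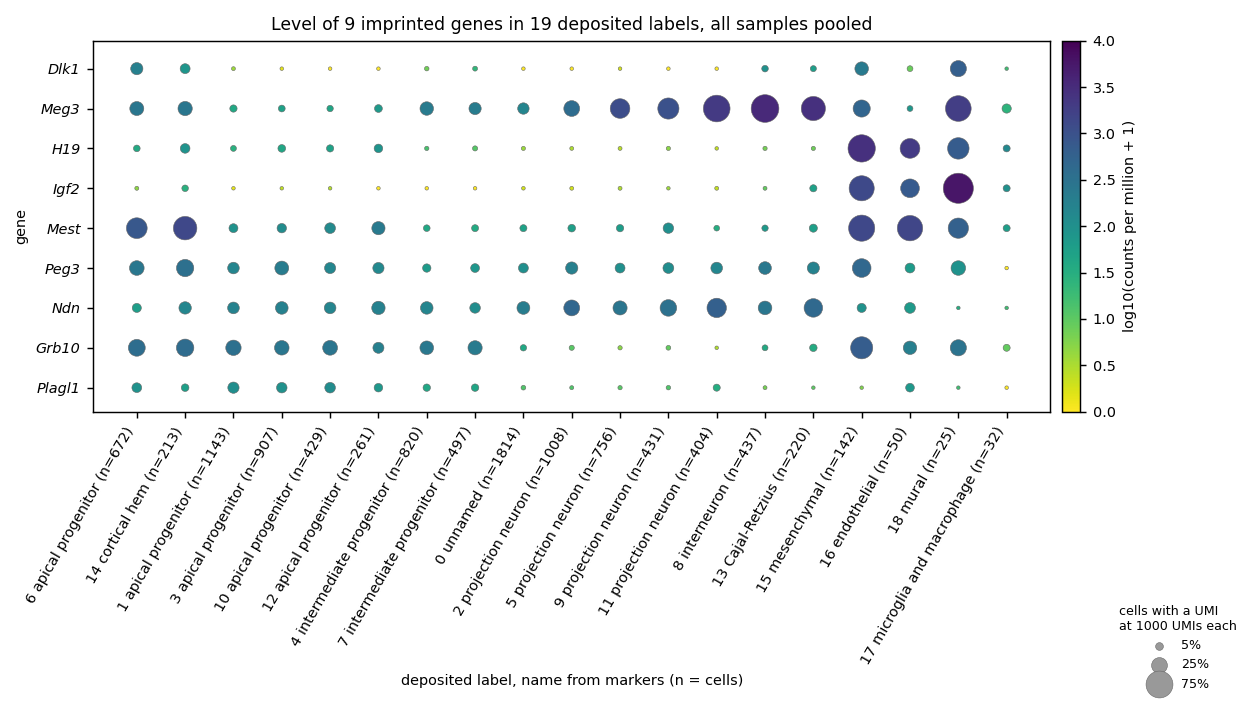
Level of each of the 9 genes in each deposited label, summed over samples; the colour gives log10(CPM + 1). Igf2 and H19 are high in labels 15, 16 and 18, and Meg3 is high in labels 8 and 13.

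H19 gave at least 1 UMI in 90.8% of the mesenchymal cells of label 15 and in 77.7% after each cell was thinned to 1000 UMIs, which leaves out 21 shallower cells. The newborn neurons of label 0 had H19 in 0.552% of cells, or 0.432% after thinning. Median depths were 3838 UMIs in label 15 and 1533.5 in label 0. Igf2 was found in all 25 mural cells of label 18 (100%, and 94.7% of 19 cells after thinning) and in 81.7% of label 15 (65.3% thinned). In label 0 the Igf2 share was 0.166% (0.0720% thinned). Label 0 holds 15 cells from E10.5 among its 1814, so its shares do not measure the background of RNA from other cells in the E10.5 sample.

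Cells were next classed by marker UMIs alone, with lists that contain none of the 9 genes, so that the classes did not depend on the values compared. A cell was taken as mesenchymal or vascular with at least 5 UMIs from at least 3 genes of the list. Neural cells had fewer than 2 UMIs of both lists together and at least 3 UMIs of a progenitor and a neuronal marker list. This gave 130 mesenchymal cells, all from E10.5, 83 vascular cells and 9188 neural cells. Of the vascular cells, 50 carry the endothelial label, 24 the mural label and 9 another label. At the edge of the vascular gate, 1 cell lay just inside and 20 just outside.

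Igf2 was at 1178 CPM in the mesenchymal cells of E10.5 and at 9.08 CPM in the neural cells of that sample, a ratio of 129.8 (95% interval 87.2 to 202, counting error only). H19 was at 2352 against 55.6 CPM, a ratio of 42.3 (35.8 to 50.3). The H19 ratio was 25.7 among cells with at most 5% mitochondrial UMIs and 60.4 with deposited labels. A single sample gives no test between conditions here. One neural cell that carries the mesenchymal label contributed 41 of the 153 H19 UMIs and 8 of the 25 Igf2 UMIs of the neural class.

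Among 4624 genes with enough counts, 9.41% were at least 2-fold higher in the mesenchymal cells and 6.21% at least 2-fold lower. Of the 9 members, 2 were at least 2-fold higher (Igf2 and H19) and 1 at least 2-fold lower (Plagl1). Plagl1 was at 10.6 CPM in mesenchymal and 76.3 CPM in neural cells, a ratio of 0.139 (0.0552 to 0.291). Grb10 lay just under the limit, at 684 against 342 CPM, a ratio just below 2 (1.78 to 2.24), and its ratio was 1.79 to 2.11 over 6 other settings, above the limit in 4 of them. Mest was at 1402 against 724 CPM, a ratio of 1.94 (1.79 to 2.1), and at 2.11 with only the libraries ending in _1. Peg3 had a ratio of 1.65 (1.44 to 1.88) and Meg3 one of 1.18 (1.05 to 1.34). For Dlk1 the ratio was 1.12 (0.935 to 1.34) and for Ndn 0.958 (0.715 to 1.27), and both intervals include 1.

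**Figure D2:**
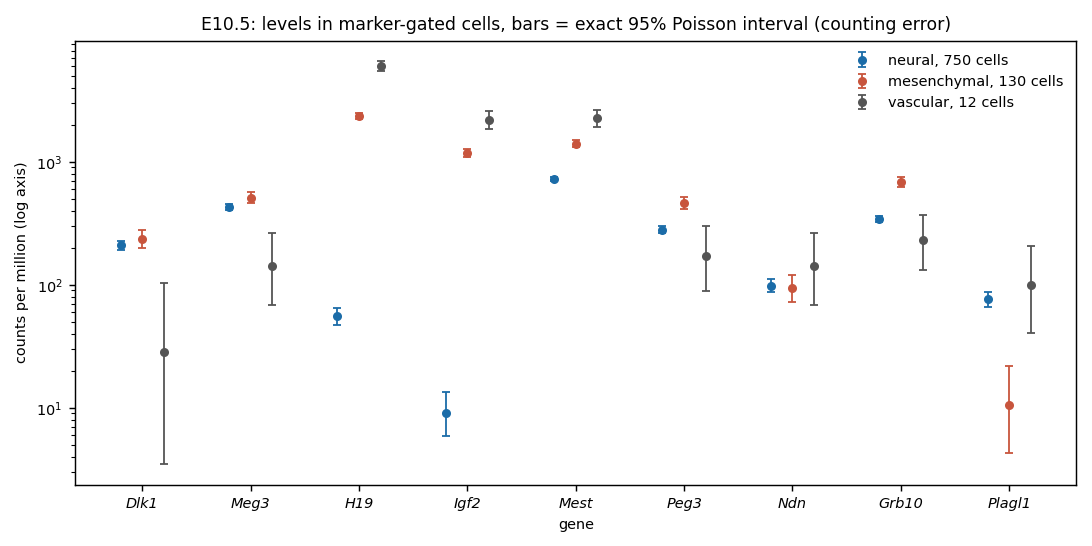
Levels of the 9 genes at E10.5 in cells classed by markers as neural, mesenchymal or vascular, in CPM on a log axis, with exact 95% Poisson intervals for counting error. Igf2 and H19 lie far higher in the mesenchymal and vascular cells than in the neural cells, while Dlk1 is lower in the 12 vascular cells (28.7 CPM).

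Other genes of the insulin-like growth factor pathway give the setting at E10.5. Igf1, the related ligand, was at 388 CPM in mesenchymal and 2.54 CPM in neural cells, a ratio of 152.5 (73.0 to 383). Igf2r, the receptor that clears Igf2 and is itself imprinted, had a ratio of 2.38, and the binding protein gene Igfbp4 one of 8.48. Igfbpl1, a neural binding protein-like gene, had a ratio of 0.0252. Of the 11 pathway genes with enough counts, 3 were at least 2-fold higher and 2 at least 2-fold lower.

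To set the neural values beside the background of mesenchymal RNA, the members were compared with mesenchymal marker genes. In the apical progenitors of label 6 at E10.5, Igf2 stood at 0.305% and H19 at 1.42% of their mesenchymal levels. The 9 mesenchymal markers compared stood at a median of 0.372% (0% to 11.8%). In the cortical hem of label 14, Igf2 stood at 2.41% and H19 at 3.37%, against a marker median of 0.283% (0% to 16.5%). The upper end is set by Prrx1 and Col5a2 in both labels, and in label 14 the other 7 markers reached at most 2.14%. In the hem, Igf2 and H19 thus lay above 7 of the 9 markers, and the part of mesenchymal RNA in these values was not tested.

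Across the 4 samples with at least 10 vascular cells, Igf2 was at 2192 CPM in vascular cells of E10.5, 3649.5 CPM at E14.5 replicate 1, 829 CPM at E15.5 and 450.0 CPM at E18.5. In neural cells it was at 9.08, 2.81, 2.45 and 3.18 CPM. The vascular values lie far above the neural ones in each sample, with no overlap. The log2 difference was 8.46 (SE 0.311, adjusted p = 8.70e-103, edgeR quasi-likelihood test with Benjamini-Hochberg adjustment over 9964 genes). Igf2, and Dlk1 below, passed the filter on low counts only through the vascular class. Their p-values in this comparison are therefore no independent support.

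Of the 9 members, 4 were higher in vascular cells (Igf2, H19, Mest and Dlk1) and 1 was lower (Peg3), and the other 4 did not pass the threshold of 0.05. Igf2 and Dlk1 are in this count only through the vascular class. Of all genes tested, 9.73% were higher and 10.7% lower, 20.4% in all. The median log2 difference over all genes was -0.28. The vascular cells also held neuronal RNA: 19 neuronal marker genes summed to 71.6 to 5037 CPM in them, against 2067 to 15439 CPM in neural cells. The 36 vascular markers summed to 23.3 to 44.7 CPM in neural cells and 6060 to 14204 CPM in vascular cells. They are the list that classed these cells, so both ranges follow from the classing and do not measure vascular RNA in neural cells. The part of the neuronal RNA in the differences was not tested.

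H19 was at 6003 CPM in vascular cells of E10.5, 394.5 CPM at E14.5 replicate 1, 31.3 CPM at E15.5 and 292 CPM at E18.5. The neural values were 55.6, 16, 12.2 and 21.5 CPM. Vascular H19 was above neural H19 in 4 of 4 samples, but at E15.5 it rests on 2 UMIs, a ratio of 2.56 (0.298 to 9.95). The log2 difference was 4.57 (SE 0.298, adjusted p = 2.00e-42, edgeR), and it ranged from 3.58 to 5.03 when a sample was left out. Within single samples the H19 difference ran from 1.35 (E15.5) to 6.76 (E10.5), a spread that this SE does not measure.

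Endothelial and mural cells differed in where these UMIs lay. In the endothelial label, H19 was at 6996 CPM at E10.5 (409 UMIs, found in 10 of 10 cells) and at 5351 CPM in 4 cells of E12.5 (102 UMIs). It was at 40.2 CPM at E14.5 replicate 1, 45.8 CPM at E15.5 and 371 CPM at E18.5, where 29 of 44 UMIs came from 1 cell. Endothelial Igf2 followed the same order of samples at first, with 2566 CPM at E10.5 and 1102 CPM at E12.5. It was at 40.2 CPM at E14.5 replicate 1, 229 CPM at E15.5 and 135 CPM at E18.5, where 15 of 16 UMIs came from 1 cell. No stage test was made in so few cells.

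In the mural label, Igf2 was at 4619 CPM in the 5 cells of E12.5 and at 6593 CPM in the 15 cells of E14.5 replicate 1, and every one of those cells held an Igf2 UMI. Mural H19 was at 1344 and 686 CPM in the same samples. At E15.5, 43 of the 53 vascular Igf2 UMIs came from 2 mural cells, and at E18.5, 61 of 77 came from 2 mural cells. The vascular Igf2 level after E10.5 therefore rests mostly on mural cells, which wrap capillaries as pericytes. In microglia and macrophages, Igf2 was at 273 CPM at E10.5 (12 UMIs, 7 of them in 1 cell) and had 0 UMIs at E12.5 and E18.5, which allows up to 108 and 99.6 CPM.

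Mest was at 2263 CPM in vascular and 724 CPM in neural cells at E10.5. At E14.5 replicate 1, E15.5 and E18.5 it was at 1397, 1126 and 485 CPM in vascular cells and at 63.1, 61.9 and 80.1 CPM in neural cells. Each vascular value exceeds the neural value of its own sample, but the neural level of E10.5 is above the vascular level of E18.5. The difference on the log2 scale was 3.15 (SE 0.248, adjusted p = 1.17e-30, edgeR). The endothelial label carried most of it, with 2583 CPM at E10.5, 2410 CPM at E14.5 replicate 1, 1558 CPM at E15.5 and 666 CPM at E18.5. The mural label held 756 CPM at E12.5 and 746 CPM at E14.5 replicate 1.

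**Figure D3:**
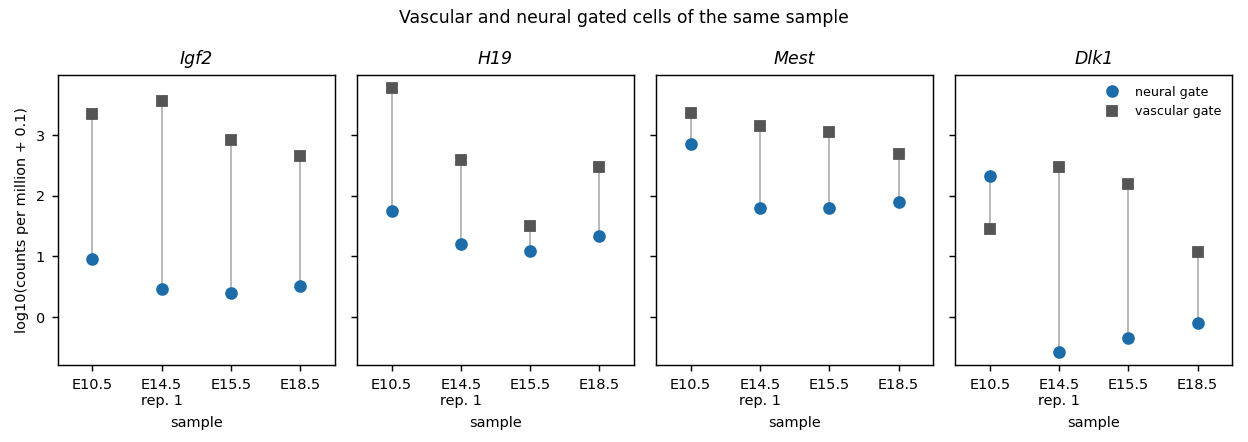
Levels of Igf2, H19, Mest and Dlk1 in cells classed as vascular and as neural, in CPM on a log axis. There is 1 line per sample (E10.5, E14.5 replicate 1, E15.5 and E18.5), and the other members are not drawn. Igf2, H19 and Mest are higher in vascular cells in all 4 samples, while Dlk1 is lower at E10.5 and higher in the other 3.

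Dlk1 was lower in vascular than in neural cells at E10.5 and higher in the later samples, and the vascular class held different cells. At E10.5 it was made of 10 endothelial cells and 2 cells of the microglia and macrophage label, with no mural cell, and the 3 later samples held 15, 2 and 2 mural cells. At E10.5 it was at 28.7 CPM in vascular cells (2 UMIs) and 210.3 CPM in neural cells, a ratio of 0.136 (0.0165 to 0.494). At E14.5 replicate 1, E15.5 and E18.5 it was at 296, 156 and 11.7 CPM in vascular cells and at 0.165, 0.350 and 0.706 CPM in neural cells. The neural values of these samples rest on 1 or 2 UMIs each. The ratio at E14.5 replicate 1 had an interval of 283 to 74628. The log2 difference over the 4 samples was 4.97 (SE 0.771, adjusted p = 6.11e-09, edgeR), and it was 1.958 without E14.5 replicate 1 (adjusted p = 0.0488) and 8.15 without E10.5. Within single samples the difference ran from -2.88 (E10.5) to 10.8 (E14.5 replicate 1), a spread that this SE and p-value do not measure.

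The 2 UMIs at E10.5 were in cells of the microglia and macrophage label. All 18 UMIs at E14.5 replicate 1 were in 4 mural cells, and the 10 at E15.5 were in mural cells as well. The 5 mural cells of E12.5 held 13 UMIs (1092 CPM), with at least 1 in every cell. Endothelial cells had 0 Dlk1 UMIs at E10.5, E14.5 replicate 1 and E15.5, which allows up to 51.3, 120.5 and 68.7 CPM, and they held the 2 UMIs of E18.5, where the 2 mural cells had none.

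Meg3 was at 143 CPM in vascular and 432 CPM in neural cells at E10.5. At E14.5 replicate 1, E15.5 and E18.5 it was at 1085, 1142 and 2454 CPM in vascular cells and at 368, 913 and 1249 CPM in neural cells. Between the classes the log2 difference was 0.44 (SE 0.222, adjusted p = 0.167, edgeR). These vascular values mix cell types: 66 of 73 UMIs at E15.5 came from 1 cell with the Cajal-Retzius label, and 382 of 420 at E18.5 came from 3 such cells. At E14.5 replicate 1, 65 of 66 UMIs came from the 15 mural cells. Endothelial cells held 10, 0, 0 and 11 Meg3 UMIs in these samples, and with classes taken from the deposited labels the difference was -1.24 (adjusted p = 3.23e-04, edgeR).

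Peg3 was lower in vascular than in neural cells in 4 of 4 samples, at 172, 98.6, 62.6 and 35.1 CPM against 281, 141, 105.2 and 118 CPM. The log2 difference was -1.01 (SE 0.387, adjusted p = 0.0468, edgeR). The call was lost without E10.5, without E15.5 and without E18.5 (adjusted p up to 0.221) and with DESeq2 (adjusted p = 0.0955). It was also lost in edgeR at a minimum of 1000 UMIs (adjusted p = 0.0665) and with the stricter gate (adjusted p = 0.0880).

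Ndn had a log2 difference of -0.79 (SE 0.354, adjusted p = 0.104, edgeR) between vascular and neural cells, with 143, 32.9, 78.2 and 199 CPM against 98.0, 257, 204 and 246 CPM. At E18.5, 28 of the 34 vascular UMIs came from the 3 cells with the Cajal-Retzius label. Mural cells had 0 Ndn UMIs at E12.5 and at E14.5 replicate 1, where 3 UMIs would be 252 and 89.5 CPM. Grb10 had a log2 difference of 0.80 (SE 0.346, adjusted p = 0.0873, edgeR), with 229, 247, 125 and 146 CPM in vascular cells and 342, 153, 57.7 and 29.7 CPM in neural cells. Vascular Grb10 thus lay below neural Grb10 at E10.5 and above it in the other 3 samples. Plagl1, at 0.30 (SE 0.597, adjusted p = 0.796, edgeR), rests on 1 to 7 vascular UMIs a sample. Without E10.5, Grb10 (1.3, adjusted p = 0.0166), Ndn (-1.19, adjusted p = 0.0154) and Meg3 (0.85, adjusted p = 0.00198) passed the threshold in edgeR. With the stricter gate Grb10 (1.42, adjusted p = 0.00735) and Ndn (-1.92, adjusted p = 1.29e-04) did so too, and with deposited labels Ndn did (-1.62, adjusted p = 9.67e-04).

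Within the neural cells, neurons and progenitors were separated by the share of their marker UMIs that came from a neuronal list, at least 70% for neurons and at most 30% for progenitors. This gave 5375 neurons and 2945 progenitors, with both classes in all 7 samples. Meg3 and Ndn were higher in neurons, and H19, Grb10, Plagl1 and Mest were lower. Of the 9 members, 2 were thus called higher, 4 lower and Peg3 neither, and Dlk1 and Igf2 had too few counts to be tested. Of 9805 genes tested, 27.2% were higher and 26.7% lower, 54% in all, so a call is no rarity in this comparison.

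Meg3 was at 21.4 CPM (E15.5) to 244 CPM (E10.5) in progenitors, with a median of 57.2 CPM. In neurons it was at 396 CPM (E12.5) to 1497 CPM (E18.5), with a median of 1123 CPM. Every neuronal value exceeds every progenitor value. On the log2 scale the difference was 3.58 (SE 0.333, adjusted p = 2.19e-06, edgeR), and 7 of 7 samples showed its direction.

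Grb10 showed the opposite order. It was at 156 CPM (E18.5) to 509 CPM (E14.5 replicate 2) in progenitors (median 269 CPM) and at 5.15 CPM (E18.5) to 123 CPM (E10.5) in neurons (median 38.9 CPM). The groups do not overlap, and the log2 difference was -3.23 (SE 0.321, adjusted p = 3.82e-06, edgeR).

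H19 was at 32.6 to 125 CPM in progenitors (median 45.7 CPM) and at 1.73 to 12.3 CPM in neurons (median 3.86 CPM), again without overlap. Its log2 difference was -3.80 (SE 0.337, adjusted p = 1.50e-06, edgeR). Plagl1, which acts on the cell cycle in cultured cells, was at 12.8 to 181 CPM in progenitors (median 117 CPM) and at 4.29 to 26.7 CPM in neurons (median 13.7 CPM). Only the progenitors of E18.5, at 12.8 CPM, fall within the neuronal range. The Plagl1 log2 difference was -2.81 (SE 0.196, adjusted p = 2.22e-07, edgeR).

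Mest was at 78.8 to 831 CPM in progenitors (median 137 CPM) and at 45.8 to 117 CPM in neurons (median 56.8 CPM). The groups overlap, because Mest in both classes was highest at E10.5, but neurons were lower in 7 of 7 samples. The log2 difference was -1.40 (SE 0.228, adjusted p = 2.29e-04, edgeR). Ndn was at 68.8 to 195 CPM in progenitors (median 166 CPM) and at 172 to 623 CPM in neurons (median 263 CPM). It was higher in neurons in 7 of 7 samples, with a log2 difference of 1.04 (SE 0.226, adjusted p = 0.00193, edgeR). Peg3 was at 85.8 to 268 CPM in progenitors and at 85.4 to 329 CPM in neurons, and its log2 difference was 0.04 (SE 0.124, adjusted p = 0.796, edgeR).

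**Figure D4:**
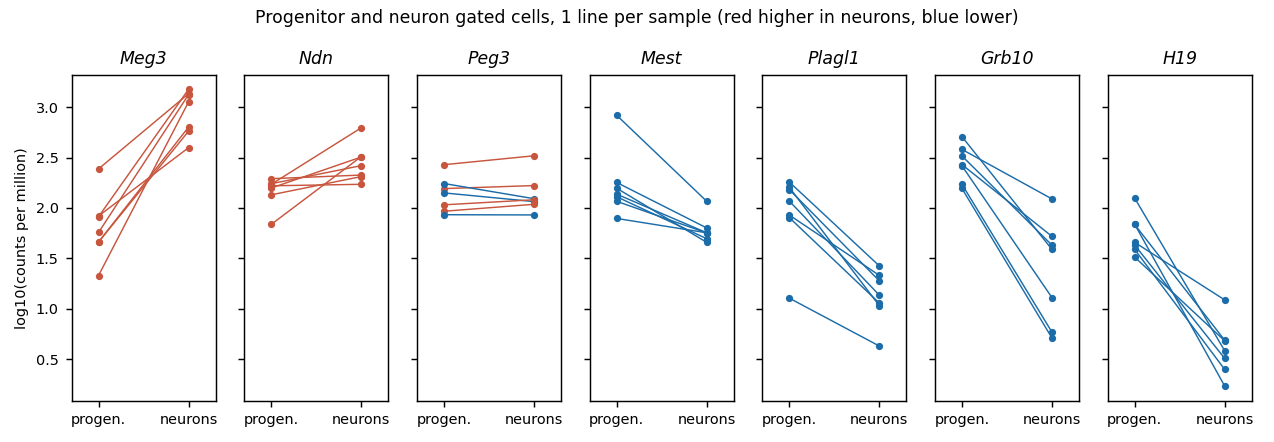
Levels of Meg3, Ndn, Peg3, Mest, Plagl1, Grb10 and H19 in cells classed by markers as progenitors and as neurons. There is 1 line per sample for 7 samples, in CPM on a log axis. Meg3 is higher in neurons in 7 of 7 samples, and Grb10, H19, Plagl1 and Mest are lower in 7 of 7.

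Dlk1 in neural cells was almost entirely an E10.5 signal. Over all cells of the neural class it was at 210.3 CPM at E10.5 and 5.34 CPM at E12.5. From E14.5 on it was at 0 to 0.805 CPM. In apical progenitors it was at 185 CPM at E10.5 (528 UMIs in 193 of 684 cells) and at 3.99 CPM at E12.5 (11 UMIs). It had 1 UMI at E14.5 replicate 1 and 0 in the other 4 samples, which allows up to 11 CPM in the shallowest of them, E16.5. Dlk1 is itself among the leading genes of label 6, a label found mostly at E10.5, and it did not reach the count needed for a test of its slope.

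The highest neural Dlk1 level was in the interneurons of E10.5, at 714 CPM (76 UMIs in 15 of 30 cells). Interneurons were at 49.3 CPM at E12.5 and at 0 to 8.64 CPM later. Among Cajal-Retzius cells of E10.5 it was at 202 CPM, but 25 of the 45 UMIs came from 1 cell. In intermediate progenitors of E10.5 it was at 206 CPM, with 10 of 26 UMIs in 1 cell.

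The change with stage was then tested within classes of deposited labels, as a slope of log2 level on embryonic day over samples. In apical progenitors, H19 rose and Peg3 fell among the 7 members tested, 2 of the 9, while Dlk1 and Igf2 were too low to test. Of all genes, 6.39% rose and 2.92% fell, 9.31% in all. H19 in apical progenitors was at 37.6 CPM at E10.5, 34.8 CPM at E12.5 and 38.8 and 36.4 CPM in the E14.5 samples. It was at 66.6 CPM at E15.5, 66.0 CPM at E16.5 and 94.0 CPM at E18.5, so the 3 latest samples lie above the 4 earliest. The slope was 0.18 a day (SE 0.0516, adjusted p = 0.0474, edgeR).

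The H19 call was kept in 2 of 7 refits that left out a sample: leaving out E12.5, E14.5 replicate 1, E15.5, E16.5 or E18.5 lost it, with an adjusted p of 0.390 and a slope of 0.12 without E18.5. It was also lost without label 12 (0.20, adjusted p = 0.146), the label with glial precursor genes, in which H19 was at 80.2 to 116 CPM. The vascular marker genes summed to 77.3 to 206 CPM in apical progenitors, highest at E18.5, and their part in the H19 slope was not tested.

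Peg3 in apical progenitors was at 258 CPM at E10.5, 179 CPM at E12.5, 189.8 and 153 CPM at E14.5, 117 CPM at E15.5, 128 CPM at E16.5 and 127 CPM at E18.5. The slope was -0.13 a day (SE 0.0369, adjusted p = 0.0394, edgeR). It was kept in 2 of 7 refits that left out a sample, and leaving out E10.5, E12.5, E14.5 replicate 1, E15.5 or E16.5 lost it (adjusted p up to 0.424, without E10.5). It was also lost without label 6 (-0.07, adjusted p = 0.369), which holds most of the class at E10.5, without label 12 (-0.11, adjusted p = 0.261), at 5% mitochondrial UMIs (-0.06, adjusted p = 0.601) and with only the libraries ending in _1 (-0.16, adjusted p = 0.103).

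Mest and Meg3 in apical progenitors were high at E10.5 and lower in every later sample, without a call. Mest was at 809 CPM at E10.5 and at 76.2 to 247 CPM later (slope -0.23, adjusted p = 0.149, edgeR). Meg3 was at 259 CPM at E10.5 and at 14.8 to 110.5 CPM later (slope -0.21, adjusted p = 0.235, edgeR). Without E10.5 the slopes were 0.16 for both, in the other direction, with adjusted p of 0.241 and 0.436. Without E18.5 both were called lower in edgeR (Mest -0.51, adjusted p = 0.00297; Meg3 -0.64, adjusted p = 3.28e-04). Mest was also called without label 12 (-0.43, adjusted p = 0.0262) and without the filter on low counts (adjusted p = 0.0444). Grb10 (slope -0.18, adjusted p = 0.0811, edgeR) was at 121 to 483 CPM, Ndn (0.15, adjusted p = 0.121) at 58.6 to 187 CPM and Plagl1 (-0.06, adjusted p = 0.728) at 28.0 to 195 CPM. Grb10 passed the threshold without E14.5 replicate 2 (adjusted p = 0.0312, edgeR) and by DESeq2 (adjusted p = 0.0362), and Ndn without E12.5 (0.22, adjusted p = 0.0220, edgeR).

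Meg3 went in opposite directions in intermediate progenitors and projection neurons. In intermediate progenitors it was at 428.5 CPM at E10.5, 283 CPM at E12.5, 192 and 264 CPM at E14.5, 69.5 CPM at E15.5, 66.6 CPM at E16.5 and 53.0 CPM at E18.5. It fell with a slope of -0.41 a day (SE 0.0708, adjusted p = 0.00854, edgeR), and it was 1 of 6 members tested that passed. Of all genes, 0.708% rose and 0.708% fell, 1.42% in all. The call was lost without E10.5 (-0.47, adjusted p = 0.0540). This class mixes labels 4 and 7, whose shares also differ between stages. Label 7 outnumbered label 4 at E10.5 (25 against 8 cells), while label 4 outnumbered label 7 at E14.5 replicate 1 (379 against 93 cells). Their part in the Meg3 slope was not tested. The sums of E10.5 (33 cells), E16.5 (31 cells) and E18.5 (46 cells) were the smallest of the class. The slopes not called were -0.08 for Grb10 (adjusted p = 0.697), -0.09 for Mest (0.808), 0.15 for Ndn (0.443), 0.10 for Peg3 (0.549) and -0.08 for Plagl1 (0.792), in edgeR.

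In projection neurons, present from E12.5, Meg3 was at 446 CPM at E12.5, 827 and 715 CPM at E14.5, 1432 CPM at E15.5, 1167 CPM at E16.5 and 1441 CPM at E18.5. It rose with a slope of 0.30 a day (SE 0.0678, adjusted p = 0.0285, edgeR), as the only member called of 6 tested. Of all genes, 2.05% rose and 1.03% fell, 3.08% in all. Leaving out E12.5 (adjusted p = 0.191), E14.5 replicate 1 (0.0594) or E16.5 (0.0795) lost the call. The projection neurons are mixtures of 4 labels whose shares differ between stages, and the part of those shares was not tested.

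The difference of the Meg3 slopes, projection neurons minus intermediate progenitors, was 0.89 a day (SE 0.111, adjusted p = 2.12e-04, edgeR, 6 samples). It was called in 6 of 6 refits that left out a sample and in 8 of 8 other refits. In this test, 0.627% of genes were called higher and 0.398% lower, 1.02% in all, and it was added after the Meg3 slopes had been seen. Against apical progenitors, the Meg3 difference was 0.15 (adjusted p = 0.578, edgeR), where 2.13% of genes were called higher and 2.52% lower, 4.65% in all. That difference was called without E18.5 (0.77, adjusted p = 0.00125), at 5% mitochondrial UMIs (0.51, adjusted p = 0.0245) and without the filter (0.18, adjusted p = 0.0340).

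Ndn in projection neurons was at 1203 CPM at E12.5, 455 and 270.1 CPM at E14.5, 268 CPM at E15.5, 194 CPM at E16.5 and 279 CPM at E18.5. The slope was -0.34 a day and missed the threshold (adjusted p = 0.0502, edgeR). With a sample left out, the Ndn slope ranged from -0.64 to -0.086 (adjusted p up to 0.690, edgeR). Its slope was lower than in apical progenitors by a tested difference of -0.37 (SE 0.0769, adjusted p = 0.0116, edgeR) and lower than in intermediate progenitors by -0.41 (SE 0.0871, adjusted p = 0.0198, edgeR). Both differences rest on E12.5: without it they were -0.19 (adjusted p = 0.205) and -0.14 (adjusted p = 0.717). Peg3 in projection neurons was at 267 CPM at E12.5 and at 88.0 to 154 CPM later (slope -0.22, adjusted p = 0.0527, edgeR). Both genes were called without E18.5 (Ndn -0.64, adjusted p = 0.00583, and Peg3 -0.38, adjusted p = 0.0178) and without E14.5 replicate 2 (adjusted p = 0.0347 and 0.0464) in edgeR. In 8 refits under other settings, Ndn was called in 4 and Peg3 in 3. Mest (0.10, adjusted p = 0.394), Grb10 (-0.37, 0.233) and Plagl1 (-0.16, 0.701) were not called in projection neurons. The Peg3 slope differed from that in intermediate progenitors by -0.33 (adjusted p = 0.0859) and from that in apical progenitors by -0.13 (adjusted p = 0.241), without a call. The differences of slopes for Grb10, H19, Mest and Plagl1 that could be tested were not called either (adjusted p = 0.514 or more, edgeR). In the newborn neurons of label 0, 0.857% of genes rose and 0.599% fell, 1.46% in all. None of the 5 members tested was called, and Meg3 had a slope of -0.24 (adjusted p = 0.120, edgeR). Grb10 had a slope of -0.34 (0.292), Mest of -0.06 (0.811), Ndn of -0.10 (0.538) and Peg3 of 0.005 (0.988). Of these 5, Grb10 and Meg3 had an unadjusted p under 0.05 in edgeR, and DESeq2 called 0.

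**Figure D5:**
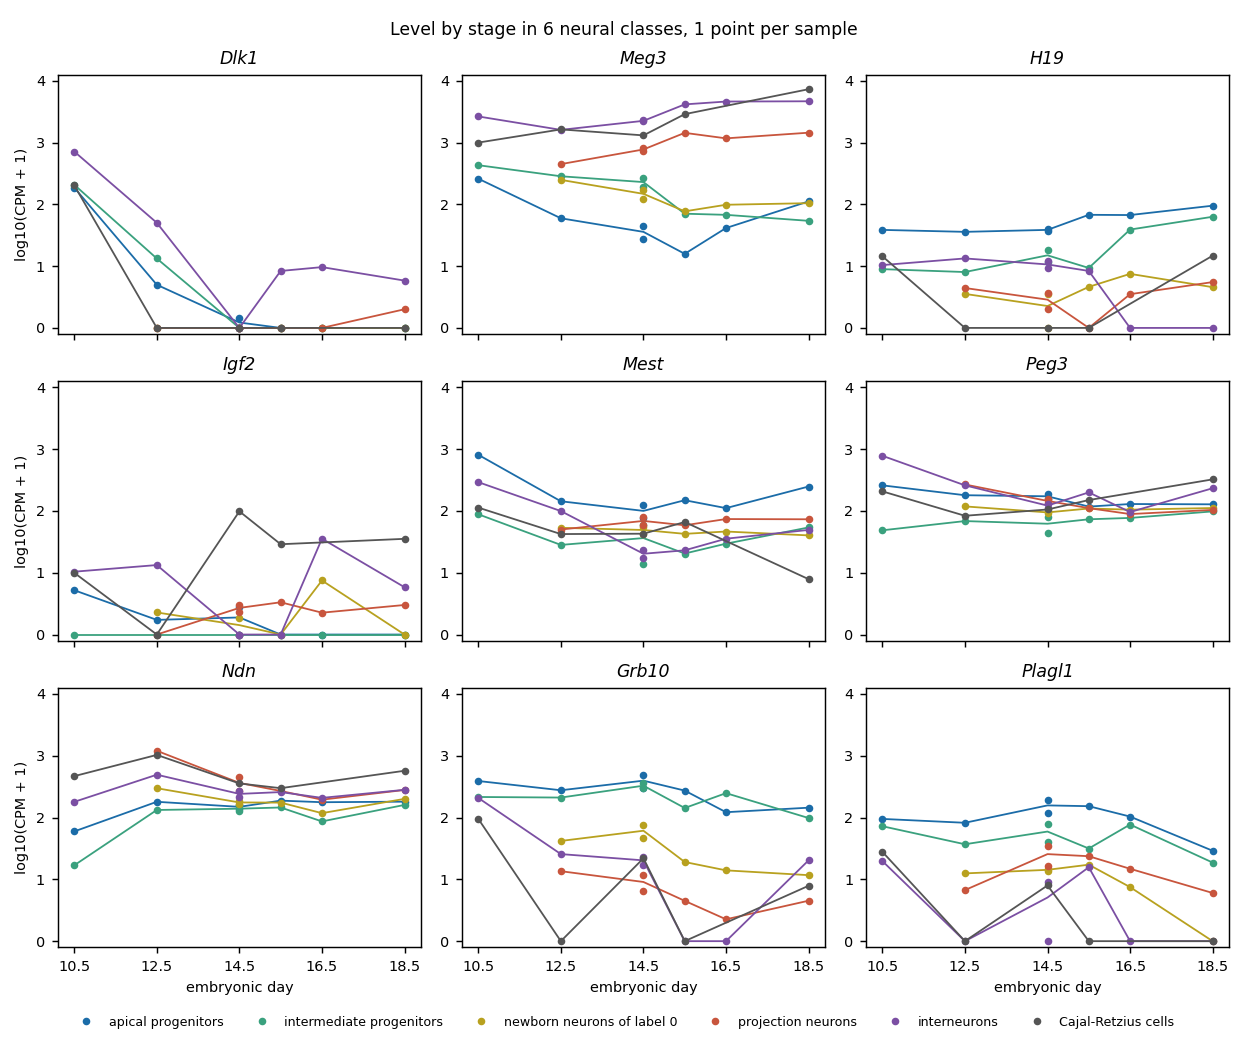
Levels of the members by embryonic day, 1 point per sample, in CPM on a log axis. The classes are apical progenitors, intermediate progenitors, newborn neurons of label 0, projection neurons, interneurons and Cajal-Retzius cells. Meg3 goes down in intermediate progenitors (428.5 to 53.0 CPM) and up in projection neurons (446 to 1441 CPM), and Dlk1 is high only at E10.5.

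Interneurons and Cajal-Retzius cells, which reach the dorsal forebrain by migration, held high Meg3 levels. In interneurons Meg3 was at 1601 CPM (E12.5) to 4647 CPM (E18.5) with a median of 2640 CPM (E10.5), and 79.9% of the thinned cells held a UMI (84.6% unthinned). In Cajal-Retzius cells it was at 996 CPM at E10.5, 1629 CPM at E12.5, 1303 CPM at E14.5 replicate 1, 2876 CPM at E15.5 and 7286 CPM at E18.5. Mural cells were at 1932 CPM at E12.5 and 1939 CPM at E14.5 replicate 1. Ndn in Cajal-Retzius cells was at 298 to 1031 CPM. Igf2 was at 0 to 2.33 CPM in projection neurons and at 0 to 34.5 CPM in interneurons. In Cajal-Retzius cells it was at 0 to 97.6 CPM with a median of 27.9 CPM, highest at E14.5 replicate 1 (14 UMIs in 8 of 54 cells). Vascular marker genes summed to as much as 522 CPM in Cajal-Retzius sums, and their part in that Igf2 level was not tested.

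The cortical hem, a signalling centre at the medial edge of the cortex that secretes Wnt and Bmp proteins, held Mest at 1515 CPM at E10.5 and 287 CPM at E14.5 replicate 1. Apical progenitors were at 809 and 76.2 CPM in the same samples. H19 in the hem was at 92.9 and 79.7 CPM, against 37.6 and 38.8 CPM in apical progenitors. Mesenchymal marker genes were also higher in the hem, at 183 to 191 CPM against 75.9 to 125 CPM in apical progenitors, and their part was not tested.

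Other imprinted genes moved in both directions in the same comparisons. Of 52 listed, 45 are in the data, and 27 were tested between vascular and neural cells: 5 were higher and 4 lower, with a median log2 difference of -0.24 against -0.28 over all genes. Asb4 (4.99), Cd81 (2.45), Peg10 (2.40) and Sgce (1.48) were higher, and Nnat (-2.83), Snrpn (-1.28) and Inpp5f (-1.06) were lower, on the log2 scale. Peg10 and Sgce are neighbours that share an imprinted domain. Between neurons and progenitors, 11 of 26 were higher and 6 lower, with a median of 0.18 against 0.03 over all genes. Cdkn1c, an inhibitor of the cell cycle, was higher in neurons by 3.15, Nnat by 2.37, Snrpn by 1.85 and Inpp5f by 1.66. Commd1 (-0.90), Cd81 (-0.78), Zdbf2 (-0.75) and Tssc4 (-0.39) were lower.

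Of the 28 insulin-like growth factor pathway genes, 21 were tested between vascular and neural cells, and 3 were higher and 4 lower (median 0.26). The binding protein genes Igfbp7 (10.7), Igfbp3 (3.77) and Igfbp4 (3.36) were higher, and Igfbpl1 (-5.33) and Igfbp2 (-1.36) were among those lower. Genes low in neural cells can pass the filter on low counts through the vascular class alone, as Igf2 and Dlk1 did. Igfbp7 had 2 UMIs (0.726 CPM) in neural cells at E10.5, so its call is no independent support. Which other listed genes passed in this way was not checked. Between neurons and progenitors, 5 of 17 were higher and 6 lower (median -0.06). Igfbpl1 was higher by 2.64, and Pik3r1, which acts downstream of the receptor, by 1.66. Igfbp5 (-4.35) and the RNA-binding proteins Igf2bp3 (-0.60), Igf2bp1 (-0.51) and Igf2bp2 (-0.43), which bind Igf2 messenger RNA, were lower. With stage in apical progenitors, Igf2bp2 (-0.47), Igf2bp1 (-0.41) and Igf2bp3 (-0.23) fell, and Htra1, a protease that cleaves binding proteins, rose by 0.89 a day, among 17 tested.

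Of 12 other Delta-like and Notch genes, 9 were tested between vascular and neural cells. In that comparison 6 were higher and 3 lower (median 2.69), where 9.73% of all genes were higher and 10.7% lower (median -0.28). Which of the 9 passed the filter on low counts only through the vascular class was not checked, so the count is no independent support. Notch3, which is among the 12, is on the vascular marker list that classed the cells, so a difference in it is no test. Between neurons and progenitors, 1 of 7 was higher, Dner (3.37), and 4 were lower (median -1.68). Of all genes, 27.2% were higher and 26.7% lower there. Notch1, at a log2 difference of -4.09, is on the progenitor marker list that sorted these cells. Its difference was therefore set in advance and is no test. The lists of other imprinted, growth factor pathway and Notch genes were drawn up with earlier results of the data known, and their counts are descriptions.

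The genes whose level went most nearly with each member were taken over 41 sums of a label in a sample, as Pearson's r of log2(CPM + 10) among 7222 genes. The sums share libraries and depth, and labels recur across samples, so r is a description. Only sums of at least 50 cells were used, which gave 1 mesenchymal sum and 0 vascular sums. H19 was nearest to Lgals1 (0.922), Cnn2 (0.915) and Gpc3 (0.889), and Igf2 to the collagen genes Col1a2 (0.882) and Col3a1 (0.863). Grb10 was nearest to Msn (0.943), Tead2 (0.939) and Mcm2 (0.938). Meg3 was nearest to Dpp6 (0.860), Cacna1b (0.856) and Syt1 (0.848), genes of the neuronal membrane and the synapse. Dlk1 was nearest to Igdcc3 (0.849), Plagl1 to Nrarp (0.864), Ndn to Klc1 (0.767), Mest to Hmga2 (0.753) and Peg3 to Wls (0.677).

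Within the 9, the chromosomal neighbours H19 and Igf2 had r = 0.645 and the neighbours Dlk1 and Meg3 had r = 0.154. Grb10 and Plagl1, on different chromosomes, had r = 0.666, and Meg3 and Grb10 had r = -0.665. In the matrix, Meg3 overlaps Gm26906, Igf2 overlaps Igf2os and Mest overlaps Copg2 on the opposite strand. The counted strand is not given in the sources used here, so reads of these pairs cannot be told apart.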

How the data were processed

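Dorsal forebrain of CD-1 embryos was dissected, dissociated with papain and processed with the Drop-seq protocol 3.1 and Drop-seq tools 3.1, per the labels' protocols. The authors deposited whole UMI counts per gene and cell, with a cluster number for each cell and no cluster names. Seurat 3.1.5 and the mm10 build are named in the submitters' processing notes. Which aligner, annotation and strand were used for counting is not given in the sources used here. The lowest gene number in a deposited cell is 501, and the highest mitochondrial share is 9.996%.

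Cells were assigned to samples by the library in their names (12 libraries, 7 samples). The library called E14_2.1 was taken as the second library of E14.5 replicate 1, an inference from its name, and no cell carries E16_1, which the labels list for E16.5. Doublets were scored with scrublet in scanpy 1.11.5 at an expected 5%. Cells with more than 2% globin UMIs were set aside.

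UMIs were summed per class and sample, for sums of at least 20 cells (10 for vascular and mesenchymal cells). The sums were tested with edgeR 4.0.16 (filterByExpr, TMM, quasi-likelihood, two-sided) under R 4.3.3, with Benjamini-Hochberg adjustment over all genes tested and a threshold of 0.05. Class comparisons within samples had the sample as a block, and stage effects were slopes on embryonic day. The SE is the size of the effect divided by the square root of its F statistic. It is no spread over samples. The scripts were tested on simulated data. Clusters were named for the class that had the largest number of markers raised 2-fold or more, if 3 or more were. One rule overrode this: a cluster with more markers of another class among its 10 leading genes stayed unnamed, as label 0 did. Alternatives were DESeq2 1.42.0, other size factors, no filter on low counts, the E14.5 samples summed, a minimum of 1000 UMIs, at most 5% mitochondrial UMIs, doublets left out, only the libraries ending in _1 (which drops E14.5 replicate 2 and E16.5), stricter classes, deposited labels and each sample left out.

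The members and the gene lists were chosen with earlier results of these data known. All 9 members are named in the comparisons of classes, and those tested in the slopes within classes. From each list, up to 4 called genes in each direction are named, those with the largest change among genes with a mean of at least 50 CPM, and some are not reported here. The nearest genes are those with the highest Pearson's r among genes with a mean of at least 20 CPM. Poisson and ratio intervals (95%, exact) cover counting error only. Beside a sum of 0 UMIs stands the level that corresponds to 3. The p-values come from few samples, 4 to 7 a test, and UMI totals of 1519473 to 6638760 a sample set what can be seen of low genes.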

Additional observations from a re-analysis of the deposited data

Results flagged for a closer look

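The slope of Ndn on embryonic day differed between projection neurons and apical progenitors by -0.37 log2 units a day (adjusted p = 0.0116, edgeR, 6 samples). Against intermediate progenitors the Ndn slope differed by -0.41 (adjusted p = 0.0198, edgeR). Without E12.5, where projection neurons held 1203 CPM, the differences were -0.19 (adjusted p = 0.205) and -0.14 (adjusted p = 0.717).

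The slope of Meg3 differed between projection neurons and intermediate progenitors by 0.89 (adjusted p = 2.12e-04, edgeR, 6 samples). Comparison with intermediate progenitors was added after the Meg3 slopes had been seen, so this p-value is no independent support. Fitted separately, the slopes were 0.30 a day in projection neurons (6 samples) and -0.41 in intermediate progenitors (7 samples, E10.5 included). The difference came from a joint fit of both classes with the sample as a block, so these 2 separate slopes need not give the 0.89. Without E10.5, on the same 6 samples, the separate slope in intermediate progenitors was -0.47. Both classes mix labels whose shares differ between stages, and the part of this mixing in the difference was not tested.

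Dlk1 was lower in vascular than in neural cells at E10.5, by -2.88 on the log2 scale, on 2 vascular UMIs, and higher in the other 3 samples. The E10.5 vascular cells included no mural cell, and its 2 UMIs were in cells of the microglia and macrophage label, while the 3 other samples held 15, 2 and 2 mural cells. The difference between E10.5 and the other samples was not tested.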

How the results depend on the processing

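Of 18 member results past the threshold, refitted 267 times under other settings, 230 refits kept the call and 37 lost it, and none changed direction. The 18 include Igf2 and Dlk1 between vascular and neural cells and the Meg3 difference from intermediate progenitors, which were called in every refit. Their p-values are no independent support, as said above, and neither are their kept refits. Of 35 results not past the threshold, refitted 498 times, 31 refits passed it and 36 changed direction. The total counts of genes called in the vascular, neuronal and mesenchymal comparisons stayed within 1.5 times their values in every setting run, but the genes called higher in vascular cells were 969 and, without E18.5, 607.

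Slopes were less stable. The setting with the first libraries keeps those ending in _1 and so drops E14.5 replicate 2 and E16.5. The limit of 5% mitochondrial UMIs leaves 4 to 6 samples, and 4 (E12.5 to E15.5) in intermediate progenitors and label 0. In apical progenitors 781 genes were called, with 1384 without a filter on low counts, 273 at 5% mitochondrial UMIs, 238 with the first libraries, 408 without label 12 and 401 to 886 when a sample was left out. In intermediate progenitors 78 were called, with 141 by DESeq2, 268 without the filter, 11 at 5% mitochondrial UMIs, 29 with the first libraries and 31 to 161 when a sample was left out. In label 0, 107 were called, with 319 without the filter, 162 with the E14.5 samples summed, 42 at 5% mitochondrial UMIs and 42 to 155 when a sample was left out. In projection neurons 299 were called, with 684 without the filter, 110 at 5% mitochondrial UMIs, 49 with the first libraries and 147 to 311 when a sample was left out. For the difference of slopes between projection neurons and apical progenitors, 401 were called, with 151 by DESeq2, 756 without the filter, 114 at 5% mitochondrial UMIs, 137 with the first libraries and 137 to 488 when a sample was left out. Settings with fewer cells or samples have less to test with, and for the others the cause was not tested.

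At 5% mitochondrial UMIs, H19 (0.17, adjusted p = 0.301) and Peg3 (-0.06, adjusted p = 0.601) in apical progenitors, Meg3 in intermediate progenitors (-0.41, adjusted p = 0.577) and the Ndn difference from apical progenitors (-0.32, adjusted p = 0.0706) were no longer called in edgeR. By DESeq2 the Ndn differences were not called (adjusted p = 0.0631 and 0.188). With the E14.5 samples summed, Meg3 in projection neurons had an adjusted p of 0.05002 in edgeR.

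Directions changed as follows, on the log2 scale. Between vascular and neural cells, Meg3 was at -1.24 with deposited labels and ranged from -0.0384 to 0.85 when a sample was left out, and Plagl1 ranged from -0.27 to 0.66. Between neurons and progenitors, Peg3 was at -0.13 at 5% mitochondrial UMIs, -0.0302 with deposited labels and -0.0292 to 0.157 when a sample was left out. In apical progenitors, slopes with a sample left out ranged from -0.64 to 0.158 for Meg3, -0.51 to 0.157 for Mest and -0.18 to 0.105 for Plagl1, and without label 6 they were 0.0430 for Meg3 and 0.0841 for Mest, and without label 12 0.0324 for Plagl1. In intermediate progenitors, Grb10 ranged from -0.16 to 0.0208 and Mest from -0.23 to 0.106, and Mest was at 0.106 at 5% mitochondrial UMIs and 0.0781 with the first libraries. In label 0, Ndn ranged from -0.29 to 0.0490 and Peg3 from -0.0346 to 0.0901, and Peg3 was at -0.0145 without the filter and -0.000645 with the E14.5 samples summed. In projection neurons, Plagl1 ranged from -0.48 to 0.297 and was at 0.0283 at 5% mitochondrial UMIs. For differences from apical progenitors, H19 ranged from -0.67 to 0.232, Meg3 from -0.20 to 0.77 and Mest from -0.28 to 0.17, and H19 was at 0.0493 with doublets left out and 0.112 with the first libraries, and Mest at 0.0464 at 5% mitochondrial UMIs. For differences from intermediate progenitors, Mest ranged from -0.00940 to 0.15 and was at -0.00893 by DESeq2, and Plagl1 ranged from -0.19 to 0.37. The cause was not tested.

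Class comparisons had the sample as a block. By replicate number, no paired analysis was possible because only E14.5 has a second sample. The vascular comparison was not run at 5% mitochondrial UMIs or with the first libraries, which leave fewer than 3 samples. Mesenchymal cells come from 1 sample, and vascular values rest on 11 to 27 cells in the 4 samples tested. Dlk1 and Igf2 are too low for a test within neural cells at this depth, and they entered the vascular comparison only through the vascular class.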
